A study of Mus musculus with 115 samples.

Results

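Abdominal skin of male mice aged 30 months was compared with that of mice aged 2 months, as 5 libraries against 5, which are 10 of the 112 libraries of the main counts table. The members were taken from the labels of tissue and age alone. The mice were of the C57BL/6J strain, raised in one breeding facility, and the pieces of skin, described as hairless, were snap frozen. Each library held the skin of 1 mouse, a different mouse at each age. Libraries of 24 months were not used, and those of 15 and 9 months (5 each) are given as values and otherwise enter only fits that are named as adding them. The study asked whether transcript changes of ageing, taken over processes in several vertebrate species and tissues, resemble those of ageing diseases. Here the question was what separated the oldest skin from the youngest.

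Skin is a stack of layers. Keratinocytes of the epidermis divide at its base and fill with keratins as they move outwards, the dermis below is a mat of collagen fibrils laid down by fibroblasts, and fat and a thin sheet of skeletal muscle lie beneath. Hair follicles cross these layers and cycle between growth, regression and rest. A growing follicle holds rapidly dividing matrix cells, makes hair keratins and melanin, and grows down into a thickened layer of fat, so that skin in growth and skin at rest differ in many transcripts at any age.

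The libraries held between 27010148 and 40648322 reads assigned to genes. Levels are given as CPM, the reads of a gene scaled to the depth and composition of its library, and differences as log2 fold changes of 30 against 2 months, where a negative value is lower at 30 months. A gene is called where its p, adjusted over all 17855 genes tested with edgeR's quasi-likelihood test, was under 0.05. The markers fixed for skin were present in all 10 libraries: Krt5, a keratin of basal keratinocytes, stood at 2817 to 4822 CPM at 30 months and 2883 to 3930 CPM at 2 months. Of the markers fixed for brain, Snap25, a neuronal gene, stayed at or under 0.292 CPM in all 10, and Gfap and Syt1 at or under 1.77 CPM. Camk2a did not, at 55.1 to 285 CPM at 30 months and 20.6 to 210 CPM at 2 months. Of those fixed for liver, Alb reached 37.9 CPM, and Apoa2, Ttr and Serpina1a stayed at or under 4.954 CPM.

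In all, 1933 genes were higher and 3038 lower at 30 months (10.8% and 17% of those tested, 27.8% together), and 7969 genes had an unadjusted p under 0.05. The median over all genes tested was -0.01. In 1383 of the called genes (7.75% of those tested) the 5 libraries of 30 months did not overlap those of 2 months, and called or not, such separation was found in 8.43%. Among the genes higher at 30 months were those of immunoglobulins, the B cell chemokine Cxcl13, antigen presentation, complement, mast cells, endothelium and clock output. Among the lower ones were fibrillar collagens and genes of the hair shaft, melanocytes and cell division.

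A pair of libraries stood apart from their ages, and both stayed in every result unless said otherwise. On the first principal component, which held 77.9% of the variance, 30-month libraries scored 67.8, 47.5, 6.59, 74.9 and 63.9 and 2-month libraries 53.6, -80.6, -87.8, -87.5 and -58.4. So 30-month replicate 3 lay between the ages, and 2-month replicate 1 lay among the 30-month libraries. The same 2 libraries stood apart in hair genes. Summed over the list of hair shaft and inner root sheath genes, 30-month libraries had 784, 215, 7617, 263 and 118 CPM, against 691, 45231, 53394, 61742 and 31381 CPM in 2-month libraries. Libraries of 9 and 15 months fell at both ends of this scale, at 119.9 to 29211 and 220.9 to 29649.9 CPM. Thus 1 of the 5 pieces of 30-month skin and 4 of the 5 pieces of 2-month skin carried hair transcripts at 7617 CPM or more.

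**Figure D1:**
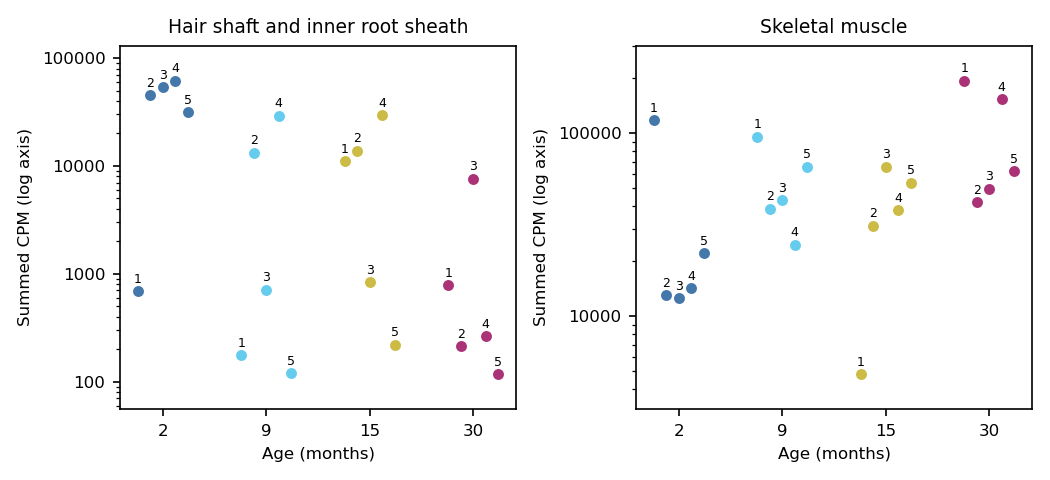
Summed CPM (log axis) of the list of hair shaft and inner root sheath genes (left) and of the skeletal muscle list (right) in each skin library, by age in months, with the replicate number above each point. Among the 30-month libraries replicate 3 has the most hair transcripts, 7617 CPM. Replicate 1 of 2 months lies at 691 CPM for hair, far below the other 2-month libraries, and at 117902 CPM for muscle, above them.

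Skeletal muscle moved the other way. Its list summed to 193755, 41898, 49858, 153318 and 62102 CPM at 30 months, against 117902, 13004, 12583, 14191 and 22121 CPM at 2 months, and no marker of the list was at 0. Here, too, only 2-month replicate 1 lay in the range of the 30-month libraries. In bulk tissue of this kind, fewer cells of a type and less RNA per cell cannot be told apart.

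The number of calls followed these libraries. Leaving out 2-month replicate 1 gave 4885 higher and 5047 lower genes, and leaving out 2-month replicate 3 gave 137 and 97. Without 2-month replicates 2 and 4 the counts were 318 and 437, and 343 and 449. Without 30-month replicates 5, 4 and 1 they were 557 and 733, 821 and 1065, and 1289 and 1418. Without both libraries that stand apart, an alternative chosen after seeing the data, 4942 genes (27.5%) were higher and 4836 (26.9%) lower. When the mean level of the hair list entered the fit of the 10 libraries as a covariate, 3 genes were higher and none lower. In a fit that added the 9- and 15-month libraries, where hair level varied within an age, the same covariate left 384 genes higher (2.06%) and 127 lower (0.682%), again an alternative chosen after seeing the data. Below, this is called the hair-adjusted fit, and counts of lists are also given with libraries left out. In all 51 lists the most calls were made without 2-month replicate 1. The fewest were made without 2-month replicate 2 or 3, in some lists tied with other fits. The hair shaft list, for example, also had 0 called members without 2-month replicate 4 or without 30-month replicate 5. A fit named below for the fewest calls can be 1 of several that tied. Of the 94 genes named in the text, 86 were called, 31 of them also in every fit that left out 1 library. Without 2-month replicate 3, 55 of the 86 lost their call, at adjusted p of up to 0.101.

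**Figure D2:**
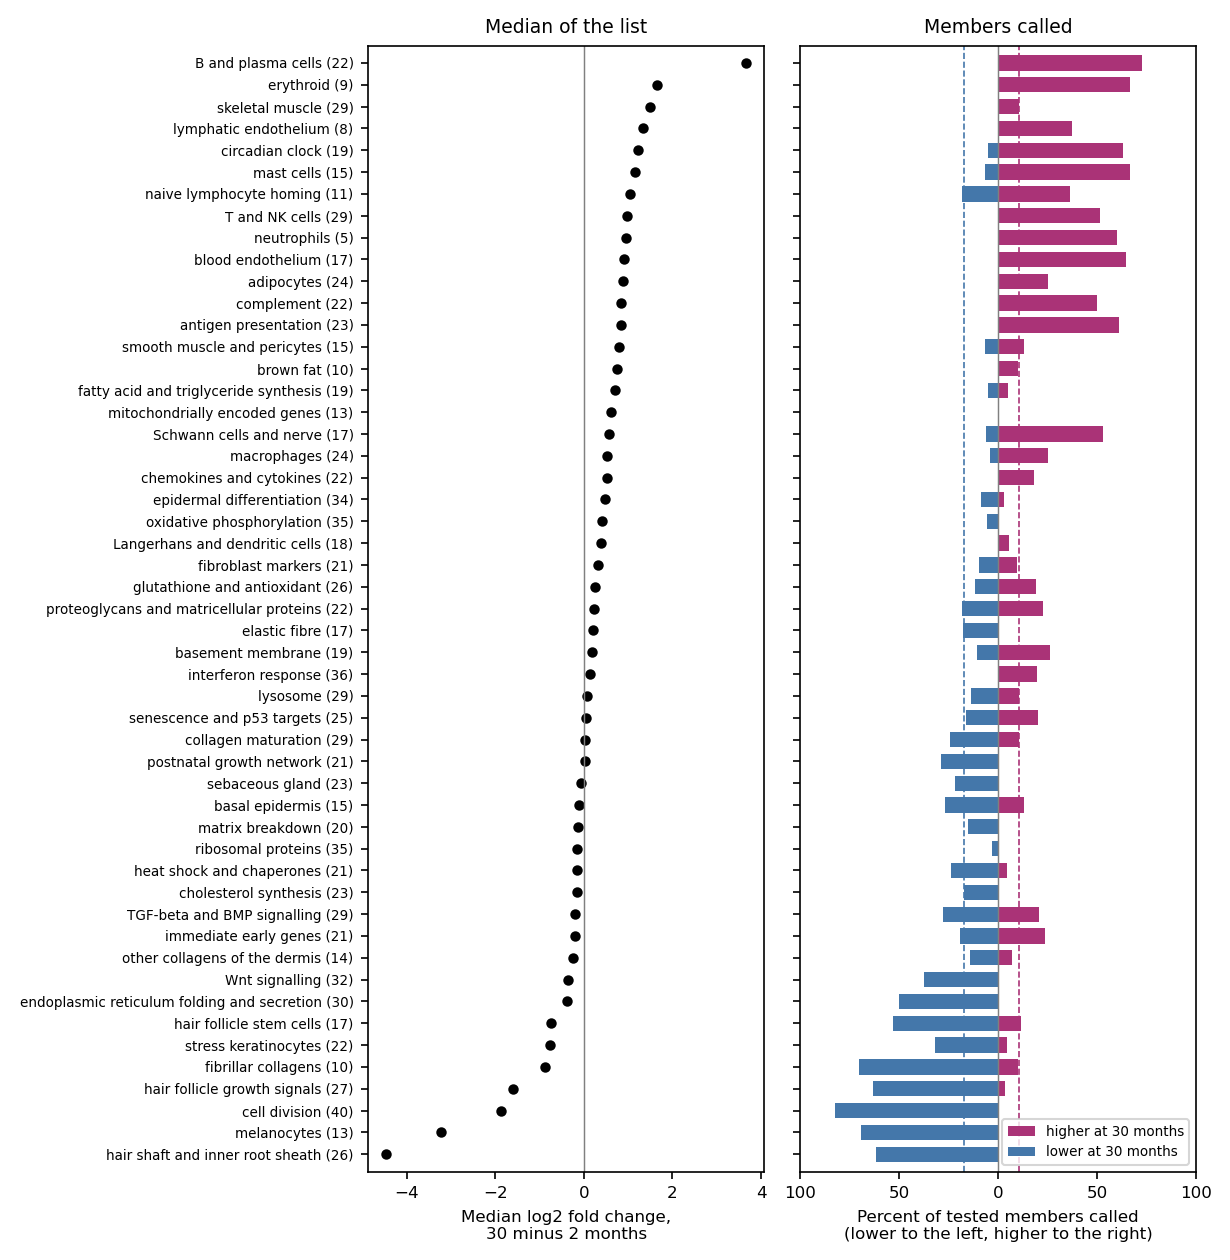
Gene lists ordered by the median log2 fold change of their tested members, 30 minus 2 months (left; number tested in brackets), and the percent of tested members called (right; higher at 30 months drawn to the right, lower to the left). Dashed lines mark the share of all genes called, 10.8% higher and 17% lower. B and plasma cell genes are at the top with a median of 3.66 and hair shaft genes at the bottom with -4.46.

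Most of the collagens that build the fibrils of the dermis were lower at 30 months. Of 10 fibrillar collagen genes tested, 7 fell and 1 rose, with a median of -0.87, and in 6 of them every 30-month library lay below every 2-month library, against 3.86% of all genes tested. The 1 that rose was Col27a1 (log2 fold change 0.60, adjusted p = 0.0498), a minor fibrillar collagen. Col1a1 (ENSMUSG00000001506, chromosome 11, 94936224 to 94953042 on GRCm38), which encodes the α1 chain of type I collagen, the main fibril of skin, had 267, 154, 273, 430.3 and 471 CPM at 30 months, against 2002, 2763, 1837, 1095 and 2282 CPM at 2 months. The ages were far apart, and 2-month replicate 1, which resembled old skin in hair genes, lay within the 2-month range here. The comparison gave a log2 fold change -2.65 ± 0.36 SE, adjusted p = 0.00940, or 6.26-fold lower, and the highest adjusted p over the 10 fits that each left out 1 library was 0.0340 (without 2-month replicate 2).

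Col1a2 (ENSMUSG00000029661, chromosome 6, 4504814 to 4541544), the α2 chain of the same trimer, had 337.1, 211, 297, 525 and 587 CPM at 30 months, against 1968, 2518, 1778, 1101 and 2244 CPM at 2 months (log2 fold change -2.30 ± 0.34 SE, adjusted p = 0.0124). Col3a1 (ENSMUSG00000026043, chromosome 1, 45311538 to 45349706), whose type III fibrils run with those of type I, had 254.5, 184, 262, 426 and 482 CPM at 30 months, against 1937, 1741, 1257, 920.3 and 1656 CPM at 2 months (log2 fold change -2.22 ± 0.32 SE, adjusted p = 0.0120). Sparc (ENSMUSG00000018593, chromosome 11, 55394500 to 55423183), a secreted protein that binds collagen, had 366, 181, 299, 412 and 493 CPM at 30 months, against 1672, 1615, 1247, 848 and 1662 CPM at 2 months (log2 fold change -2.01 ± 0.30 SE, adjusted p = 0.0125). In all 3 the highest 30-month library lay below the lowest 2-month library. At 9 and 15 months Col1a1 was at 2231 to 3948 and 1210.5 to 4214 CPM and Col3a1 at 1593 to 2212 and 922 to 3423 CPM, so that none of those 10 libraries was as low as the highest 30-month library. In the hair-adjusted fit the log2 fold changes were -2.66, adjusted p = 0.00506 for Col1a1, -2.35, adjusted p = 0.0101 for Col1a2 and -2.36, adjusted p = 0.00590 for Col3a1, and 5 of the list were lower. Without both libraries that stand apart, 6 were lower and 1 higher, and over the fits without 1 library between 3 (without 2-month replicate 2) and 7 (without 2-month replicate 1) were lower.

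**Figure D3:**
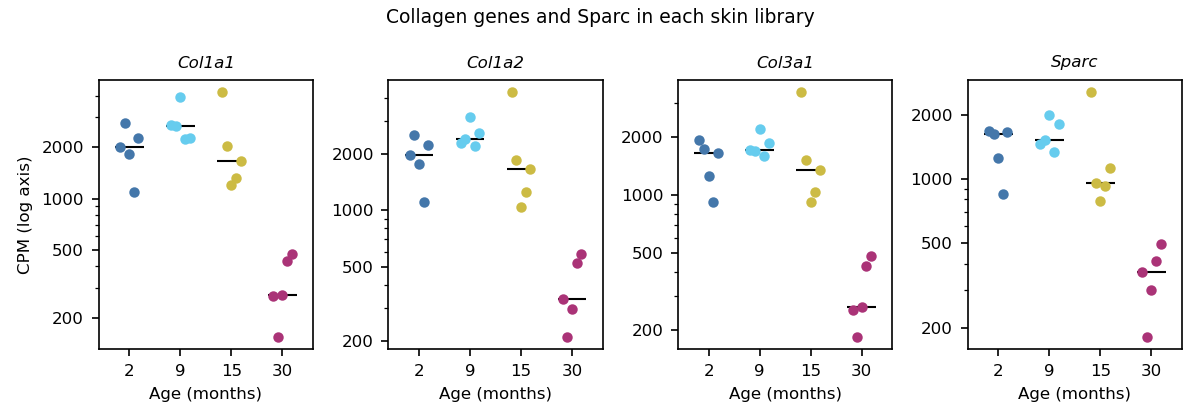
CPM (log axis) of Col1a1, Col1a2, Col3a1 and Sparc in each skin library by age in months (points, 5 libraries an age; bars, medians). In all 4 genes every 30-month library lies below every library of 2, 9 and 15 months, for Col1a1 at 471 CPM or less against 1095 CPM or more at 2 months.

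Beyond the fibrillar collagens the matrix did not move as a block. Serpinh1 (ENSMUSG00000070436, chromosome 7, 99345376 to 99353239), the chaperone that folds procollagen, had 99.4, 62.1, 89.8, 118 and 102 CPM at 30 months, against 224, 209.3, 186, 148 and 184 CPM at 2 months (log2 fold change -1.01 ± 0.18 SE, adjusted p = 0.0154), with no overlap. Adamts3, which trims the ends of procollagen, also fell (log2 fold change -2.26, adjusted p = 0.0167), as did Postn, a matricellular protein (log2 fold change -0.90, adjusted p = 0.0210), and Col6a3, of the beaded filaments (log2 fold change -0.86, adjusted p = 0.0204). Cpz, a secreted carboxypeptidase that binds Wnt proteins, was at 1.80 to 9.35 CPM at 30 months, against 15.2 to 36.4 CPM at 2 months (log2 fold change -2.47, adjusted p = 0.0149). Over the collagen maturation list, 3 genes rose and 7 fell of 29, with a median of 0.03. Loxl4, an enzyme that crosslinks collagen and elastin, rose (log2 fold change 0.89, adjusted p = 0.0172). The list had 12 higher and 7 lower members without both libraries that stand apart, 13 higher and 7 lower without 2-month replicate 1 alone, 0 higher and 2 lower without 2-month replicate 3 and 0 higher and 2 lower in the hair-adjusted fit.

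Elastic fibre and matrix breakdown genes were called lower at about the share of all genes, 17%. Eln, the gene of elastin, was at 26.2 to 47.9 CPM at 30 months and 27.7 to 56.2 CPM at 2 months (log2 fold change -0.03, adjusted p = 0.920), and of 17 elastic fibre genes 0 rose and 3 fell. Tnxb, the tenascin that spaces collagen fibrils, had 301 to 432 CPM at 30 months, against 105 to 292 CPM at 2 months (log2 fold change 1.17, adjusted p = 0.0209). Thbs2, a thrombospondin that limits fibril growth, rose as well (log2 fold change 1.20, adjusted p = 0.0181), and in both the 30-month libraries lay above all 2-month libraries. Of 22 proteoglycan and matricellular genes 5 rose and 4 fell, and of 20 genes of matrix breakdown 0 rose and 3 fell. The fibroblast marker list had 2 higher and 2 lower members of 21, with a median of 0.32. These counts turned on single libraries. Without 2-month replicate 1 the proteoglycan list had 10 higher and 6 lower members and the fibroblast list 11 higher and 4 lower, as they had without both libraries that stand apart. In the same fit elastic fibre had 5 higher and 3 lower and matrix breakdown 5 higher and 3 lower. Without 2-month replicate 3 the proteoglycan, fibroblast and matrix breakdown lists had 0 called members and elastic fibre 0 higher and 1 lower. The hair-adjusted fit gave the proteoglycan list 1 higher and 0 lower and the fibroblast list 0 higher and 0 lower.

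Some genes of the secretory route fell by small amounts. Of 30 genes of folding and secretion in the endoplasmic reticulum, 15 were lower and 0 higher, with a median of -0.39. Sec61b, of the channel that takes new proteins into the reticulum, had 21.6, 22.3, 24.97, 19.7 and 21.1 CPM at 30 months, against 25.6, 40.3, 39.995, 40.7 and 48.2 CPM at 2 months (log2 fold change -0.83 ± 0.15 SE, adjusted p = 0.0167). Ssr2, of a complex beside that channel (log2 fold change -0.73, adjusted p = 0.0161), and Dnajb11, a co-chaperone (log2 fold change -0.39, adjusted p = 0.0172), also fell. In all 3 genes the ages did not overlap, but 2-month replicate 1 was the lowest of its age and close to old skin. The hair-adjusted fit called 3 of the list lower, and between 0 (without 2-month replicate 3) and 17 (without 2-month replicate 1) were lower over the fits without 1 library.

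Transcripts of antibody-making cells had the highest median of the 51 lists. Of 22 B and plasma cell genes, 16 rose and 0 fell, with a median of 3.66. The list summed to 567 to 1844 CPM at 30 months, against 204 to 366 CPM at 2 months, with 329 to 532 and 362 to 596 CPM at 9 and 15 months. Igkc (ENSMUSG00000076609, chromosome 6, 70726435 to 70726966), the constant part of the kappa light chain, had 205, 136, 278, 38.6 and 214 CPM at 30 months, against 4.85, 1.34, 0.667, 0.895 and 1.97 CPM at 2 months (log2 fold change 6.505 ± 0.74 SE, adjusted p = 0.00526). The lowest 30-month library, replicate 4, lay well above the highest 2-month library.

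Jchain (ENSMUSG00000067149, chromosome 5, 88519809 to 88527891), which joins IgA and IgM into polymers in plasma cells, had 28.5, 24.3, 20.9, 7.34 and 16.4 CPM at 30 months, against 0.703, 0.538, 0.115, 0.2797 and 0.466 CPM at 2 months (log2 fold change 5.56 ± 0.52 SE, adjusted p = 0.00388). At 9 and 15 months it was at 2.54 to 8.16 and 5.32 to 38.5 CPM, all above the 2-month libraries. Ighm (ENSMUSG00000076617, chromosome 12, 113418558 to 113422730), the constant part of the IgM heavy chain, had 515, 209.2, 997, 267 and 569 CPM at 30 months, against 108, 31.3, 21.1, 21.6 and 31.8 CPM at 2 months (log2 fold change 3.58 ± 0.61 SE, adjusted p = 0.0149), and 2-month replicate 1 was the highest of its age. Cxcl13 (ENSMUSG00000023078, chromosome 5, 95956951 to 95961068), the chemokine that draws B cells into lymphoid follicles, had 17.3, 18.3, 55.2, 18.8 and 26.3 CPM at 30 months, against 2.92, 1.14, 0.874, 0.979 and 1.12 CPM at 2 months (log2 fold change 4.29 ± 0.48 SE, adjusted p = 0.00526). Its 30-month libraries also lay above all of 9 and 15 months (2.98 to 9.20 and 2.52 to 4.23 CPM). The adjusted p of these 4 genes rose to at most 0.0305 (without 2-month replicate 2) for Igkc, 0.0175 (without 2-month replicate 5) for Jchain, 0.0492 (without 2-month replicate 2) for Ighm and 0.0276 (without 2-month replicate 2) for Cxcl13 when 1 library was left out, and in the hair-adjusted fit they were 6.63, adjusted p = 1.79e-04, 5.96, adjusted p = 2.54e-04, 3.42, adjusted p = 0.00247 and 4.07, adjusted p = 1.79e-04, each log2 fold change with its p.

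Genes of mature B cells were less even among old mice. Ms4a1, which encodes the surface marker CD20 and was chosen here after its values were seen, had 2.53, 6.17, 39.5, 0.690 and 60.6 CPM at 30 months, against 2.48, 0.179, 0.253, 0.112 and 0.493 CPM at 2 months (log2 fold change 5.01 ± 1.34 SE, adjusted p = 0.0266). Replicates 3 and 5 of 30 months were high, and replicate 4 lay below 2-month replicate 1, so that the ages overlapped. The list of naive lymphocyte homing, a marker list for lymph node, had 4 higher and 2 lower members of 11 and summed to 60.98 to 137 CPM at 30 months, against 39.96 to 166 CPM at 2 months, ranges that overlapped. It had 7 higher and 2 lower without 2-month replicate 1 and 1 higher and 0 lower without 2-month replicate 3. Its part in the rise of B cell genes was not tested. Without both libraries that stand apart 19 B and plasma cell genes were higher, the hair-adjusted fit gave 13, and between 3 (without 2-month replicate 3) and 19 (without 2-month replicate 1) were higher over the fits without 1 library.

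**Figure D4:**
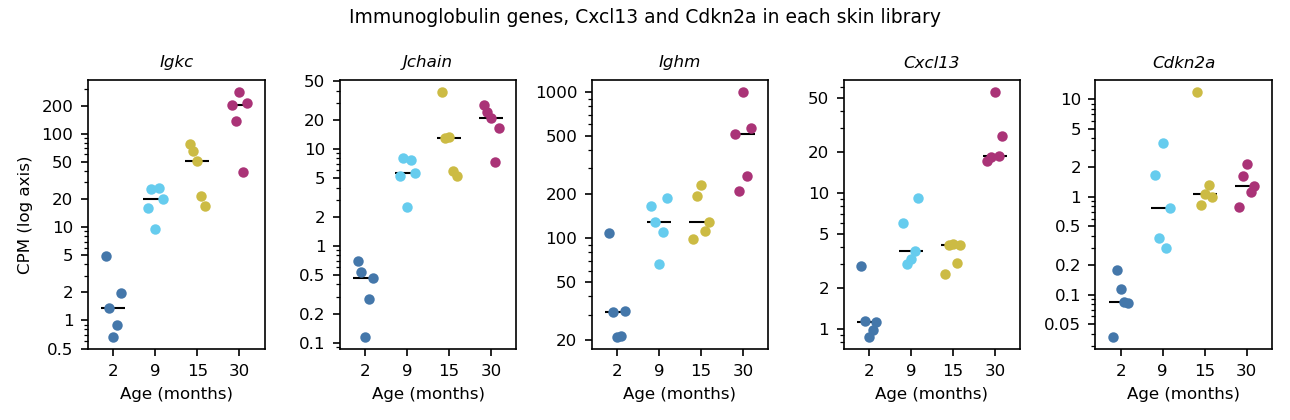
CPM (log axis) of Igkc, Jchain, Ighm, Cxcl13 and Cdkn2a in each skin library by age in months (points, 5 libraries an age; bars, medians). The 30-month libraries lie above all 2-month libraries in all 5 genes. Cdkn2a has its highest value, 11.8 CPM, in a 15-month library.

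Changes of T cell genes were smaller. Of 29 T and NK cell genes 15 were higher and 0 lower, with a median of 0.96. Zap70, the kinase recruited to the T cell receptor first, had 4.67, 2.58, 3.30, 3.81 and 2.88 CPM at 30 months, against 2.26, 1.16, 0.828, 1.12 and 1.81 CPM at 2 months (log2 fold change 1.27 ± 0.29 SE, adjusted p = 0.0197), with no overlap between the ages. The list had 18 higher without both libraries that stand apart, in the hair-adjusted fit 1 was, and over the fits without 1 library between 1 (without 2-month replicate 3) and 19 (without 2-month replicate 1) were.

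Part of the genes of antigen presentation were higher. Of 23 class I and class II genes and their helpers 14 were higher and 0 lower, with a median of 0.83. In the hair-adjusted fit 1 was higher, and with 1 library left out between 0 (without 2-month replicate 3) and 23 (without 2-month replicate 1) were. H2-Q6, a nonclassical class I gene with close copies among which reads may be split, had 152, 328, 274, 165 and 191 CPM at 30 months, against 127, 65.2, 52.6, 57.1 and 88.2 CPM at 2 months (log2 fold change 1.51 ± 0.30 SE, adjusted p = 0.0172). Psmb8, an immunoproteasome subunit that cuts peptides for class I (log2 fold change 1.15, adjusted p = 0.0183), and Igtp, a GTPase induced by interferon gamma (log2 fold change 1.23, adjusted p = 0.0189), rose too. Over 36 interferon response genes, however, 7 rose and 0 fell (median 0.14, beside -0.01 over all genes tested). Of 22 complement genes 11 were higher and 0 lower. C4b, a complement protein cleaved in the classical pathway, whose near copy C4a may share its reads, had 265, 289, 524, 323.4 and 373 CPM at 30 months, against 209.8, 146, 122, 121 and 227 CPM at 2 months (log2 fold change 1.10 ± 0.25 SE, adjusted p = 0.0192). C3, on which all complement pathways meet, was at 472 to 978 CPM at 30 months and 161 to 696 CPM at 2 months and did not pass (log2 fold change 1.15, adjusted p = 0.0555), though it did without 2-month replicate 1 (1.70, adjusted p = 5.41e-04).

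The counts of these groups differed with the libraries used. Replicate 1 of 2 months was the highest of its age in H2-Q6, Psmb8, Igtp and C3. It lay just below the lowest 30-month library in the first 3 and among the 30-month libraries in C3. Without both libraries that stand apart the antigen presentation list had 23 higher and 0 lower members and the complement list 16 higher and 0 lower. In the hair-adjusted fit the count was 2 higher and 0 lower for complement. With 1 library left out, between 0 (without 2-month replicate 3) and 17 (without 2-month replicate 1) complement genes were higher, and the interferon response list had 8 higher and 1 lower without 2-month replicate 1 and 0 higher and 0 lower without 2-month replicate 3.

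Among resident immune cells, mast cells showed the largest share of called members. Of 15 mast cell genes 10 rose and 1 fell, with a median of 1.15. Mrgprb2, the receptor by which connective tissue mast cells respond to basic peptides, had 14.1, 34.1, 20.4, 20.8 and 26.9 CPM at 30 months, against 14.8, 7.83, 6.99, 5.85 and 8.33 CPM at 2 months (log2 fold change 1.41 ± 0.29 SE, adjusted p = 0.0176), with replicate 1 of each age at nearly one level. Ccl11, eotaxin, which attracts eosinophils, had 34.1, 26.6, 28.7, 26.1 and 38.02 CPM at 30 months, against 16.98, 5.97, 5.54, 6.85 and 8.30 CPM at 2 months (log2 fold change 1.82 ± 0.30 SE, adjusted p = 0.0144) and did not overlap. Of 16 neutrophil genes found, only 5 passed the filter on low counts, which can keep a gene for its level at 1 age alone. Of these 5 neutrophil genes 3 rose, such as Csf3r, the receptor of granulocyte colony-stimulating factor (log2 fold change 1.45, adjusted p = 0.0169). Without 2-month replicate 1, 6 of 8 tested there were higher, and without 2-month replicate 3 0 were. The hair-adjusted fit gave 1 higher and 0 lower for the mast cell list, and without both libraries that stand apart it was 12 higher and 1 lower. With 1 library left out, between 1 (without 2-month replicate 2) and 13 (without 2-month replicate 1) were higher.

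Of 24 macrophage genes tested 6 rose and 1 fell, 29.2% called in all, which is near the 27.8% of all genes tested. The list had 16 higher and 2 lower without 2-month replicate 1, 14 higher and 2 lower without both libraries that stand apart, 0 higher and 1 lower without 2-month replicate 2 and 0 higher and 0 lower in the hair-adjusted fit. Mpeg1, which makes pores in engulfed bacteria, rose (log2 fold change 1.28, adjusted p = 0.0230). Cd5l, a secreted protein of tissue macrophages, reached 1.11, 7.13, 4.90, 9.33 and 76.3 CPM at 30 months, against 2.52, 0.299, 0.207, 0.447 and 0.466 CPM at 2 months (log2 fold change 4.69, adjusted p = 0.0248), and replicate 5 of 30 months stood far above the rest. Cd207, langerin of Langerhans cells, was at 10.5 to 23.7 CPM at 30 months and 5.82 to 17.9 CPM at 2 months (log2 fold change 0.55, adjusted p = 0.254), and 1 of 18 Langerhans and dendritic cell genes rose, with 6 higher and 1 lower without 2-month replicate 1.

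Some genes of vessels, nerve and fat were also higher at 30 months. Of 17 genes of blood endothelium 11 rose and 0 fell (median 0.90). Plvap, of the diaphragms of fenestrated capillaries, had 75.7, 72.2, 114, 100.8 and 115 CPM at 30 months, against 52.0, 40.1, 40.1, 48.8 and 53.4 CPM at 2 months (log2 fold change 1.03 ± 0.16 SE, adjusted p = 0.0134), and Vwf, the von Willebrand clotting factor, rose as well (log2 fold change 1.24, adjusted p = 0.0139). Lymphatic endothelium had 3 higher members of 8, among them Reln, reelin, at 8.37 to 16.5 CPM at 30 months, against 2.96 to 6.96 CPM at 2 months (log2 fold change 1.72, adjusted p = 0.0134). In Plvap, Vwf and Reln the ages did not overlap. The counts for blood endothelium were 16 higher and 0 lower without both libraries that stand apart and 3 higher and 0 lower in the hair-adjusted fit, and between 2 (without 2-month replicate 3) and 16 (without 2-month replicate 1) were higher with 1 library left out. For lymphatic endothelium these fits gave between 1 (without 2-month replicate 2) and 7 (without 2-month replicate 1) higher.

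Of 17 Schwann cell and nerve genes 9 rose and 1 fell. Drp2, of the Schwann cell membrane around myelin (log2 fold change 1.23, adjusted p = 0.0172), and Mbp, a myelin protein (log2 fold change 1.12, adjusted p = 0.0186), were among the higher ones, with 2-month replicate 1 the highest of its age in both. Of 24 fat cell genes 6 rose and 0 fell (median 0.89). That is 25% called, beside 10.8% of all genes called higher and 27.8% called in either direction. The list summed to 3116 to 5448 CPM at 30 months, against 1813 to 4813 CPM at 2 months, ranges that overlapped. Pparg, the regulator of fat cell formation, had 23.2, 14.9, 15.5, 18.7 and 23.2 CPM at 30 months, against 10.7, 5.94, 5.54, 7.05 and 8.93 CPM at 2 months (log2 fold change 1.32 ± 0.22 SE, adjusted p = 0.0139), and Cfd, adipsin, also rose (log2 fold change 1.22, adjusted p = 0.0188). Adipoq, adiponectin, did not pass (111 to 236 CPM at 30 months and 43.5 to 159.6 CPM at 2 months, log2 fold change 0.89, adjusted p = 0.0818), nor did Lep, leptin (4.84 to 34.3 CPM at 30 months and 3.23 to 30.9 CPM at 2 months, log2 fold change 0.41, adjusted p = 0.648). The fat list had 20 higher and 0 lower without both libraries that stand apart and 1 higher and 0 lower in the hair-adjusted fit, and the Schwann cell and nerve list 10 higher and 2 lower and 2 higher and 0 lower in these fits. With 1 library left out, between 1 (without 2-month replicate 2) and 20 (without 2-month replicate 1) fat cell genes and between 0 (without 2-month replicate 3) and 10 (without 2-month replicate 1) Schwann cell and nerve genes were higher.

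Red blood cell genes were higher in part. Of 9 erythroid genes 6 rose (between 0 (without 2-month replicate 2) and 7 (without 2-month replicate 1) with 1 library left out), and the list summed to 1847 to 4972 CPM at 30 months, against 531 to 2635 CPM at 2 months, ranges that overlapped. Hba-a1, alpha globin, which has a near-identical copy that may share its reads, was at 433 to 1256 CPM at 30 months and 112 to 639 CPM at 2 months (log2 fold change 1.67, adjusted p = 0.0370). The part of blood left in the pieces in the rise of lymphocyte and neutrophil genes was not tested.

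Of 29 skeletal muscle genes 29 had a positive value with a median of 1.496, but only 3 passed, with 2-month replicate 1 at the level of old skin. All 29 were higher without both libraries that stand apart, or without 2-month replicate 1 alone. In the hair-adjusted fit 0 were, as in each fit without 30-month replicate 1, 4 or 5 or without 2-month replicate 2, 3, 4 or 5. Sln and Ankrd1, below, are not members of this list. Sln, sarcolipin, a brake on the calcium pump of muscle, had 351, 122, 176, 373 and 113 CPM at 30 months, against 51.3, 10.5, 9.61, 10.5 and 29.3 CPM at 2 months (log2 fold change 3.35 ± 0.61 SE, adjusted p = 0.0159). Myh1, a fast myosin, was at 2331 to 10165 CPM at 30 months and 659 to 3701 CPM at 2 months (log2 fold change 2.27, adjusted p = 0.0288). Ankrd1, a stretch-responsive protein of the sarcomere, was at 1.54 to 35.3 CPM at 30 months and 0.0920 to 1.44 CPM at 2 months (log2 fold change 4.92, adjusted p = 0.0210). Of the 10 fits that each left out 1 library, Sln was called in 9, Ankrd1 in 7 and Myh1 in 3. None of the 13 mitochondrially encoded genes passed (median 0.62), whereas 13 did without both libraries. Of 35 nuclear genes of oxidative phosphorylation 0 rose and 2 fell, and 21 higher and 2 lower passed without both.

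Genes of dividing cells were lower at 30 months as nearly a whole list. Of 40 cell division genes 33 fell and 0 rose, with a median of -1.86. Cenpe, the kinesin that brings chromosomes to the middle of the spindle, had 5.75, 4.08, 8.66, 3.12 and 6.57 CPM at 30 months, against 8.73, 40.5, 40.6, 38.3 and 18.8 CPM at 2 months (log2 fold change -2.38 ± 0.44 SE, adjusted p = 0.0167). Mki67, the proliferation marker Ki-67, had 44.1, 37.6, 84.5, 26.1 and 46.2 CPM at 30 months, against 57.98, 261, 269, 269 and 109.7 CPM at 2 months (log2 fold change -2.02 ± 0.46 SE, adjusted p = 0.0195). Tpx2, a spindle assembly factor, fell by 2.11 on the log2 scale. In Mki67 the ages overlapped, since 2-month replicate 1 lay among the 30-month libraries and 30-month replicate 3 above it. Without both of these libraries 39 members were lower, while the hair-adjusted fit called 2 lower, and with 1 library left out between 0 (without 2-month replicate 3) and 39 (without 2-month replicate 1) were lower.

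Promoters of cell division genes often carry the cell cycle homology region, at which the DREAM complex holds these genes off in resting cells. The letters TTTGAA (as TTCAAA on the other strand) were searched on both strands of RefSeq promoter windows of GRCm38. Each window runs from 250 bases before to 50 after an annotated start. A gene counted if any of its windows held the letters. Each window shown here and below is the first of its gene with a match, and need not lie at the main start. The letters TTTGAA were in 19 of the 33 cell division genes with a window, or 57.6%, against 20.2% of the 27025 genes with one. Of the 27 called genes with a window, 17 held them. The windows of the 3 called genes of smallest adjusted p that hold the letters are shown because these genes moved together, with the letters in capitals. A match of this kind describes the sequence and does not show a bound site.
Ccnb2, chr9:70421505-70421804, minus strand: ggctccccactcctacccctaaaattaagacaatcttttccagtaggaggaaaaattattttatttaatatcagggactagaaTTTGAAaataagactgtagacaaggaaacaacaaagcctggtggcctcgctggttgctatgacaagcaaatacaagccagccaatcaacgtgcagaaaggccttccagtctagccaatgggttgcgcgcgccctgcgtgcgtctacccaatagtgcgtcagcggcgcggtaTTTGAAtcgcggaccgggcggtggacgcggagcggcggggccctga
Aurka, chr2:172370521-172370820, minus strand: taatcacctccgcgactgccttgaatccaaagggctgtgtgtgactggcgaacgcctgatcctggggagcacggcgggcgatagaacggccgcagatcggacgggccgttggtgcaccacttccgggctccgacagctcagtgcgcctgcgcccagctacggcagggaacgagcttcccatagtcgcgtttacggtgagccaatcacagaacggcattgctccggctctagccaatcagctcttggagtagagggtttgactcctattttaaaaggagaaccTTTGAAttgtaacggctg
Kif2c, chr4:117178723-117179022, minus strand: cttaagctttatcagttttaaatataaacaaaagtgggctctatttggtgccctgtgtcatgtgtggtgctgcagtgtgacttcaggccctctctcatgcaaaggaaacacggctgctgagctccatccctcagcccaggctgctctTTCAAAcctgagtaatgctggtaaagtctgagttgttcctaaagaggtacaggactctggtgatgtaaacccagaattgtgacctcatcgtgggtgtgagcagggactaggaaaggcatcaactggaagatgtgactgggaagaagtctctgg
Ccnb2, a cyclin that starts mitosis, had 6.16, 4.52, 9.42, 3.196 and 4.93 CPM at 30 months, against 8.77, 32.9, 35.1, 33.95 and 15.8 CPM at 2 months (log2 fold change -2.16 ± 0.42 SE, adjusted p = 0.0169). Aurka, a kinase of the spindle poles, had 7.86, 4.61, 6.59, 5.05 and 4.07 CPM at 30 months, against 8.73, 20.4, 22.7, 19.5 and 10.9 CPM at 2 months (log2 fold change -1.55 ± 0.30 SE, adjusted p = 0.0169), and its lowest 2-month library (replicate 1) stood just above its highest 30-month library. Kif2c, a kinesin that takes microtubules apart, had 4.29, 2.49, 6.39, 2.32 and 3.02 CPM at 30 months, against 6.22, 22.5, 26.1, 25.8 and 10.4 CPM at 2 months (log2 fold change -2.30 ± 0.45 SE, adjusted p = 0.0169). Ccnb2 and Kif2c were chosen for the motif after their values were seen.

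Structural genes of hair had the lowest median of the 51 lists. Of 26 hair shaft and inner root sheath genes 16 were lower and 0 higher (median -4.46). Krt36, a hair keratin, had 1.66, 0.985, 14.5, 1.20 and 0.869 CPM at 30 months, against 2.52, 107, 113, 106 and 71.9 CPM at 2 months (log2 fold change -4.37 ± 1.12 SE, adjusted p = 0.0239). Outside this list, Krtap9-5 is one of a family of similar keratin-associated proteins of the shaft. It had 0.658, 0.232, 0.962, 0.218 and 0.139 CPM at 30 months, against 0.999, 87.2, 71.8, 45.3 and 16.1 CPM at 2 months (log2 fold change -6.62 ± 1.10 SE, adjusted p = 0.0140). Replicate 1 of 2 months was level with the highest old library. Of 27 growth signals of the follicle 17 fell and 1 rose, among them Lef1, the partner of beta-catenin in matrix cells (log2 fold change -3.91, adjusted p = 0.0228). Wnt5a, a Wnt ligand, had 17.2, 15.96, 23.5, 14.6 and 22.8 CPM at 30 months, against 29.3, 105, 118, 119 and 65.8 CPM at 2 months (log2 fold change -2.22 ± 0.35 SE, adjusted p = 0.0134), without overlap. Bmp2, a ligand made by the follicle and by fat, fell too (log2 fold change -1.45, adjusted p = 0.0161).

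Of 13 melanocyte genes 9 were lower (median -3.22), such as Mitf, the regulator of the lineage (log2 fold change -1.27, adjusted p = 0.0211), and Slc24a5, an exchanger needed for melanin (log2 fold change -3.25, adjusted p = 0.0264). Stem cell genes of the follicle fell in 9 of 17 and rose in 2. The wider Wnt signalling list had 0 higher and 12 lower of 32, and TGF-beta and BMP signalling had 6 higher and 8 lower of 29. Leaving out both libraries that stand apart, the counts were 0 higher and 25 lower for the hair shaft, 1 higher and 20 lower for growth signals, 2 higher and 11 lower for stem cell genes, 0 higher and 11 lower for melanocytes, 5 higher and 15 lower for Wnt signalling and 8 higher and 13 lower for TGF-beta and BMP signalling. Without 2-month replicate 3 stem cell genes and TGF-beta and BMP signalling had 0 called members and Wnt signalling 0 higher and 1 lower. In the hair-adjusted fit the counts were 0 higher and 2 lower for growth signals and 0 higher and 0 lower for melanocytes, and of the hair shaft list itself, which is the covariate, 0 higher and 0 lower. Over the fits without 1 library, between 0 (without 2-month replicate 2) and 14 (without 2-month replicate 1) melanocyte genes, between 0 (without 2-month replicate 2) and 26 (without 2-month replicate 1) hair shaft genes and between 2 (without 2-month replicate 3) and 20 (without 2-month replicate 1) growth signals were lower. The fit without 2-month replicate 1 tested 16 melanocyte genes.

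Sebaceous gland and sterol genes held single members that separated the ages. Soat1, which makes cholesterol esters, had 18.9, 32.1, 29.7, 37.7 and 33.7 CPM at 30 months, against 48.7, 76.5, 68.95, 65.0 and 56.3 CPM at 2 months (log2 fold change -1.05 ± 0.19 SE, adjusted p = 0.0157). Mc5r, the melanocortin receptor of sebaceous cells, had 3.22, 1.77, 2.89, 3.45 and 2.40 CPM at 30 months, against 6.03, 6.36, 6.76, 6.21 and 5.81 CPM at 2 months (log2 fold change -1.18 ± 0.19 SE, adjusted p = 0.0134). In both genes 2-month replicate 1 stayed with or near its age. Their lists were called lower near the share of all genes, 17%, with 5 lower of 23 for the gland and 4 lower of 23 for cholesterol synthesis, and none higher in either. Without 2-month replicate 1 the counts were 4 higher and 5 lower for the gland and 3 higher and 5 lower for cholesterol synthesis, and the hair-adjusted fit called 0 in both.

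Abundant genes of the epidermis itself mostly did not pass the test. Krt14, of basal keratinocytes, was at 1458 to 2610.3 CPM at 30 months and 1547 to 2744 CPM at 2 months (log2 fold change -0.01, adjusted p = 0.971). Krt10 (log2 fold change 0.90, adjusted p = 0.130) and Lor, loricrin of the cornified layer (log2 fold change 0.81, adjusted p = 0.140), did not pass, and both passed without 2-month replicate 1 (1.45, adjusted p = 0.00168 and 1.31, adjusted p = 0.00196). Krt15, a keratin of quiet basal and bulge cells, was higher (1540.5 to 2412 CPM at 30 months, against 911 to 1482 CPM at 2 months, log2 fold change 0.78, adjusted p = 0.0268), as was Col17a1, which anchors basal cells (log2 fold change 0.9997, adjusted p = 0.0271). The list of epidermal differentiation had 1 higher and 3 lower of 34, Ivl, involucrin, being one of those that fell (log2 fold change -1.36, adjusted p = 0.0234), and a median of 0.49. The balance of this list turned with 1 library, at 19 higher and 6 lower without 2-month replicate 1, 19 higher and 5 lower without both libraries that stand apart, and 0 higher and 0 lower without 2-month replicate 3, as in the hair-adjusted fit.

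Genes that keratinocytes raise under stress or injury fell in 7 of 22 and rose in 1, with between 2 (without 2-month replicate 2) and 11 (without 2-month replicate 1) lower when 1 library was left out, 10 without both that stand apart and 1 in the hair-adjusted fit. Sprr1b, a small proline-rich protein of the cornified envelope, had 0.173, 0.782, 3.91, 0.145 and 0.208 CPM at 30 months, against 3.37, 37.7, 31.2, 44.9 and 13.3 CPM at 2 months (log2 fold change -4.61 ± 1.04 SE, adjusted p = 0.0192). Stfa1, a stefin with near copies, had 0.242, 0.435, 0.408, 0.291 and 0.486 CPM at 30 months, against 3.85, 16.97, 5.34, 0.392 and 19.8 CPM at 2 months (log2 fold change -4.62 ± 0.88 SE, adjusted p = 0.0169), and replicate 4 of 2 months was as low as old skin. Outside this list, Klk6, a protease of the kallikrein family, did not overlap (1.05 to 8.49 CPM at 30 months, against 10.6 to 39.1 CPM at 2 months, log2 fold change -2.88, adjusted p = 0.0195).

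Most clock genes tested were higher. The circadian clock is a loop in which BMAL1 and CLOCK switch on Per, Cry and Nr1d genes through E-box sequences and are then held back by them, while the outputs Dbp, Tef and Hlf and their opponent Nfil3 act on D-boxes. Of 19 clock genes 12 were higher and 1 lower, with a median of 1.21, and in 8 the 30-month libraries all lay above those of 2 months, against 4.58% of all genes tested. Dbp (ENSMUSG00000059824, chromosome 7, 45705088 to 45710203), whose protein activates D-box genes, had 93.5, 27.6, 21.4, 135 and 117 CPM at 30 months, against 4.74, 5.97, 4.002, 9.37 and 13.7 CPM at 2 months (log2 fold change 3.38 ± 0.59 SE, adjusted p = 0.0154). Replicates 2 and 3 of 30 months were lower than the other 3 but still above all 2-month libraries.

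Per3 (ENSMUSG00000028957, chromosome 4, 151003652 to 151044665), a repressor of the loop, had 73.9, 45.7, 31.4, 93.6 and 99.3 CPM at 30 months, against 18.2, 20.9, 18.8, 22.96 and 20.9 CPM at 2 months (log2 fold change 1.76 ± 0.29 SE, adjusted p = 0.0139), with the same 2 libraries low among the old. Hlf (ENSMUSG00000003949, chromosome 11, 90336536 to 90390895) had 49.5, 74.5, 54.6, 64.5 and 82.1 CPM at 30 months, against 35.97, 18.3, 16.3, 16.9 and 18.3 CPM at 2 months (log2 fold change 1.62 ± 0.25 SE, adjusted p = 0.0125). Nfil3 (ENSMUSG00000056749, chromosome 13, 52967209 to 52981073), the repressor at D-boxes, moved the other way, with 15.7, 10.9, 21.2, 10.4 and 6.36 CPM at 30 months, against 31.4, 45.3, 50.7, 54.2 and 57.1 CPM at 2 months (log2 fold change -1.88 ± 0.30 SE, adjusted p = 0.0134). At 9 and 15 months Dbp was at 9.65 to 46.7 and 13.8 to 78.6 CPM and Nfil3 at 11.8 to 33.4 and 7.92 to 31.4 CPM. The hour at which the skin was taken is not given in the sources used here, so hour and age cannot be told apart. Without both libraries that stand apart the list had 15 higher and 1 lower, in the hair-adjusted fit 4 higher and 1 lower, and between 3 (without 2-month replicate 3) and 14 (without 2-month replicate 1) were higher over the fits without 1 library.

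**Figure D5:**
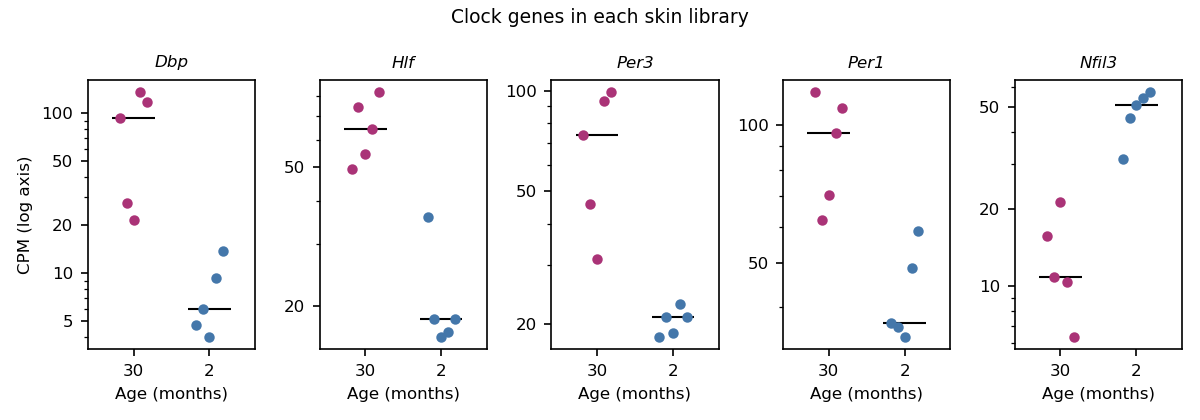
CPM (log axis) of the clock genes Dbp, Hlf, Per3, Per1 and Nfil3 in each skin library of 30 months (left) and 2 months (right; points, 5 libraries an age; bars, medians). The first 4 lie higher in all 30-month libraries and Nfil3 lies lower.

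The E-box letters CACGTG, which read the same on both strands, were in the promoter windows of 5 of 16 clock genes, and in 8.09% of all genes with a window. Those of the 4 called genes are shown with the letters in capitals, since these genes rose together. The D-box letters TTATGTAA (TTACATAA on the other strand) were in 1 of the 16, Per3, and in 1.11% of all genes, and its window is shown with both matches in capitals.
Per1, chr11:69098699-69098998, plus strand: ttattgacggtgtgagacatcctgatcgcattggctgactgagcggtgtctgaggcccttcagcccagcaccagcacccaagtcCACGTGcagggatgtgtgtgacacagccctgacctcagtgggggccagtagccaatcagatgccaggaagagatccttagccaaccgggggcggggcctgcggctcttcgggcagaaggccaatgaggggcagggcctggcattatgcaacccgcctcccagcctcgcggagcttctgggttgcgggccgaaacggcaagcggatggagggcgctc
Tef, chr15:81802423-81802722, plus strand: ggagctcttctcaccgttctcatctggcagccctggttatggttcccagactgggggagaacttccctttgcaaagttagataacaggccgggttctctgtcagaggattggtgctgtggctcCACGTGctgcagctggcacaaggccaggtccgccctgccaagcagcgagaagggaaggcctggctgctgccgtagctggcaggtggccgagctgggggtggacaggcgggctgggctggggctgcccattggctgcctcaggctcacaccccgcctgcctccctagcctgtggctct
Bhlhe41, chr6:145865371-145865670, minus strand: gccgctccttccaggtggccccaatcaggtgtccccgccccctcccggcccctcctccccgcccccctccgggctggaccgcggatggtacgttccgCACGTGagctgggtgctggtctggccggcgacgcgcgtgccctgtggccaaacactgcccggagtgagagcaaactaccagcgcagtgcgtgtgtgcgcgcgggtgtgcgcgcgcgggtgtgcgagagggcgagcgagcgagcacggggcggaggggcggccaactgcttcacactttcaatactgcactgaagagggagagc
Ciart, chr3:95882179-95882478, minus strand: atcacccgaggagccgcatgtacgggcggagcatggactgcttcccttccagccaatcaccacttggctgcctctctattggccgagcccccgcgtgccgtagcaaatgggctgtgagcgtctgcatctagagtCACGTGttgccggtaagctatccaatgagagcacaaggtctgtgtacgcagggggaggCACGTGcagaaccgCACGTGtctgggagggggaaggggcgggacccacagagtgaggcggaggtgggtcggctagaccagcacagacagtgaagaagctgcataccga
Per3, chr4:151044616-151044915, minus strand: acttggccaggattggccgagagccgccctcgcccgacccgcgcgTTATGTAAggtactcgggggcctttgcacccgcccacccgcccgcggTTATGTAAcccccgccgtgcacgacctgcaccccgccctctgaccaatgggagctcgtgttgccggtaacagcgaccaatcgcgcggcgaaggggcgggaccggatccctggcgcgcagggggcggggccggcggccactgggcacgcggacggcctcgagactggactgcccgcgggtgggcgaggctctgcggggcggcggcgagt
Per1 had 118, 62.2, 70.2, 96.2 and 109 CPM at 30 months, against 36.97, 36.2, 34.5, 48.8 and 58.7 CPM at 2 months (log2 fold change 1.08 ± 0.22 SE, adjusted p = 0.0172), without overlap. Tef, the third of the D-box activators, had 377, 171, 173, 381 and 347 CPM at 30 months, against 159, 69.5, 61.8, 79.9 and 96.7 CPM at 2 months (log2 fold change 1.64 ± 0.33 SE, adjusted p = 0.0174). Bhlhe41, an E-box repressor, was at 19.8 to 64.8 CPM at 30 months and 15.2 to 25.9 CPM at 2 months (log2 fold change 1.21, adjusted p = 0.0209), and Ciart, a repressor of the loop, at 4.37 to 16.96 CPM at 30 months and 2.997 to 4.69 CPM at 2 months (log2 fold change 1.42, adjusted p = 0.0300). In the last of these, replicates 2 and 3 of 30 months overlapped the 2-month libraries. Per1, Tef, Bhlhe41 and Ciart were chosen for the motif after their values were seen.

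Cdkn2a (ENSMUSG00000044303, chromosome 4, 89274471 to 89294653), whose products p16 and p19ARF stop the cell cycle and mark senescent cells, rose with no overlap. It had 0.796, 1.62, 2.16, 1.13 and 1.29 CPM at 30 months, against 0.0370, 0.179, 0.115, 0.0839 and 0.0822 CPM at 2 months (log2 fold change 3.74 ± 0.38 SE, adjusted p = 0.00493), or 13.4-fold higher. All old libraries lay above all young ones, and the highest adjusted p without 1 library was 0.0221 (without 2-month replicate 5). Its 2-month values rest on very few reads, so the size of the fold is uncertain. Cdkn2a may have passed the filter on low counts through its 30-month level alone, which favours a rise without overlap. At 9 and 15 months it had 1.66, 0.379, 3.56, 0.302 and 0.773 and 11.8, 0.830, 1.07, 1.31 and 1.0003 CPM, so that the highest single values were in libraries of these ages. The counts do not separate p16 from p19ARF. The hair-adjusted log2 fold change of Cdkn2a was 3.86, adjusted p = 0.0789, which did not pass.

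The wider list of senescence and p53 targets was mixed, with 5 higher and 4 lower of 25 and a median of 0.05. It had 10 higher and 6 lower without 2-month replicate 1 and 1 higher and 0 lower without 2-month replicate 3. Eda2r, a p53 target and receptor of ectodysplasin A2, rose (18.9 to 45.6 CPM at 30 months, against 5.56 to 16.9 CPM at 2 months, log2 fold change 1.75, adjusted p = 0.0198). Cdkn1a, which encodes the cycle inhibitor p21, was lower (189 to 312 CPM at 30 months, against 259 to 391 CPM at 2 months, log2 fold change -0.57, adjusted p = 0.0347). Lmnb1, a lamin that is lost in senescence and also falls in cells that do not divide, was at 16.1 to 34.2 CPM at 30 months and 23.7 to 125 CPM at 2 months (log2 fold change -2.03, adjusted p = 0.0177).

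Imprinted and other genes of postnatal growth, which fall in many organs after birth, rose in 0 and fell in 6 of 21. That is 28.6% called, near the 27.8% of all genes tested. The list had a median of 0.03 with 11 members positive. Without 2-month replicate 1 it had 6 higher and 7 lower members and without 2-month replicate 3 0 higher and 2 lower. Meg3, an imprinted noncoding RNA, had 32.9, 12.4, 16.7, 44.7 and 22.8 CPM at 30 months, against 107, 97.7, 82.2, 69.9 and 117 CPM at 2 months (log2 fold change -1.87 ± 0.33 SE, adjusted p = 0.0154), and 2-month replicate 1 lay with its age. The hair-adjusted log2 fold change of Meg3 was -1.99, adjusted p = 0.0270. Calls in both directions were found in the lists of the lysosome (3 higher and 4 lower of 29), glutathione and antioxidants (5 higher and 3 lower of 26), heat shock (1 higher and 5 lower of 21) and immediate early genes (5 higher and 4 lower of 21), and 1 of 35 ribosomal protein genes was lower. The lysosome, glutathione and heat shock lists were called at 24.1%, 30.8% and 28.6%, near the 27.8% of all genes, and immediate early genes at 42.9%. Without 2-month replicate 1 the counts were 7 higher and 8 lower for the lysosome, 12 higher and 8 lower for glutathione, 6 higher and 7 lower for heat shock, 6 higher and 9 lower for immediate early genes and 0 higher and 6 lower for ribosomal proteins. Without 2-month replicate 3 immediate early genes had 1 higher and 0 lower and the others 0 called members.

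Among the genes of smallest adjusted p was Gpha2 (ENSMUSG00000024784, chromosome 19, 6226380 to 6227768), an alpha subunit of a glycoprotein hormone. It had 19.4, 32.9, 15.8, 19.3 and 18.1 CPM at 30 months, against 3.37, 2.06, 1.52, 1.398 and 2.33 CPM at 2 months (log2 fold change 3.31 ± 0.30 SE, adjusted p = 0.00388). At 9 and 15 months it was at 4.35 to 14.3 and 4.74 to 20.2 CPM. Zfp419, a zinc finger gene, had 1.004, 2.06, 1.34, 1.20 and 1.15 CPM at 30 months, against 0.259, 0.149, 0.184, 0.168 and 0.192 CPM at 2 months (log2 fold change 2.82 ± 0.26 SE, adjusted p = 0.00388), and Frmpd4, a scaffold protein, 0.658, 1.16, 1.05, 1.42 and 1.46 CPM at 30 months, against 0.148, 0.0896, 0.161, 0.0839 and 0.164 CPM at 2 months (log2 fold change 3.11 ± 0.30 SE, adjusted p = 0.00398). None of the 3 overlapped between the ages, and all kept their calls when any 1 library was left out. Zfp419 and Frmpd4 rest on very few reads at 2 months. Both may have passed the filter on low counts through their 30-month level alone, which favours a rise without overlap.

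Among the largest changes that separated the ages were also genes outside the lists. Atp6v1g3, a subunit of the proton pump of specialised cells, had 2.39, 8.72, 4.61, 2.14 and 2.33 CPM at 30 months, against 0.555, 0.149, 0.115, 0.112 and 0.329 CPM at 2 months (log2 fold change 4.04 ± 0.59 SE, adjusted p = 0.0125). Gnb3, a G protein subunit, was uneven among old mice, with 2.04, 1.25, 12.2, 0.763 and 26.5 CPM at 30 months, against 0.518, 0.149, 0.207, 0.168 and 0.329 CPM at 2 months (log2 fold change 4.97, adjusted p = 0.0182), and Cd300lf, an inhibitory receptor of myeloid cells, likewise (1.18, 3.04, 9.60, 3.89 and 10.04 CPM at 30 months, against 0.777, 0.747, 0.230, 0.224 and 0.630 CPM at 2 months, log2 fold change 3.42, adjusted p = 0.0167). Lhfpl1, a membrane protein, had 0.761, 1.01, 3.50, 0.617 and 1.32 CPM at 30 months, against 6.55, 14.96, 17.4, 16.6 and 16.3 CPM at 2 months (log2 fold change -3.30 ± 0.50 SE, adjusted p = 0.0125).

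To see which changes were stronger in skin than elsewhere, the change between 30 and 2 months in skin was set against the mean change in blood, brain and liver in a single fit with the 35 libraries of those tissues. Of 21210 genes tested, 1324 (6.24%) had a more positive and 2767 (13%) a more negative change in skin. Col1a1 differed by -3.201 ± 0.62 SE on the log2 scale, adjusted p = 2.51e-04, the changes elsewhere being 1.99 in liver, 0.61 in blood and -0.95 in brain. Col1a2 differed by -2.44 ± 0.52 SE on the log2 scale, adjusted p = 7.54e-04 and Sparc by -2.29 ± 0.33 SE on the log2 scale, adjusted p = 2.90e-06. The rise of Igkc was larger in skin than this mean by 4.34 ± 0.96 SE on the log2 scale, adjusted p = 0.00117 (4.68 in liver, -1.03 in blood and 2.81 in brain) and that of Jchain by 4.04 ± 0.82 SE on the log2 scale, adjusted p = 4.60e-04 (4.56 in liver, -0.89 in blood and 0.94 in brain). Both genes also rose in liver, and their negative change in blood lowers the mean. Their rise is therefore not particular to skin, and the difference from liver alone is not given here.

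Clock genes differed in the same test. The rise of Dbp was larger in skin by 4.11 ± 0.49 SE on the log2 scale, adjusted p = 3.00e-07 (-1.85 in liver, -0.66 in blood and 0.32 in brain), that of Per3 by 2.01 ± 0.32 SE on the log2 scale, adjusted p = 1.99e-05 (-1.38 in liver, 0.19 in blood and 0.42 in brain), and the change of Nfil3 differed by -2.45 ± 0.34 SE on the log2 scale, adjusted p = 1.74e-06 (0.04 in liver, 1.91 in blood and -0.27 in brain). Pparg rose more in skin by 1.16 ± 0.32 SE on the log2 scale, adjusted p = 0.00764 (-0.29 in liver, 0.76 in blood and -0.01 in brain). The genes of smallest adjusted p in this test that were also called in skin were led by Bmpr1a, a BMP receptor, which differed by -1.75 ± 0.18 SE on the log2 scale, adjusted p = 2.89e-08 although its own log2 fold change in skin was -0.51, since it was higher at 30 months in blood (0.07 in liver, 3.59 in blood and 0.04 in brain). Fam49a, a regulator of the actin network, differed by -3.41 ± 0.35 SE on the log2 scale, adjusted p = 2.89e-08 (1.35 in liver, 1.08 in blood and -0.23 in brain), and Alox8, a lipoxygenase, by -5.35 ± 0.56 SE on the log2 scale, adjusted p = 4.40e-08 (0.34 in liver, 2.66 in blood and 0.68 in brain). In both genes 2-month replicate 1 lay among old skin, and Fam49a stood at 19.1, 15.6, 40.02, 16.2 and 20.2 CPM at 30 months, against 20.4, 149, 184, 207.1 and 145 CPM at 2 months. Blood and skin with one animal number came from the same mouse, which the fit did not model, and without blood 4815 genes differed. Without 2-month replicate 1 the count was 6208.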

How the data were processed

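The authors made TruSeq libraries from total RNA of skin and read 50 bases from one end. The deposited values used here are counts, whole numbers of reads per gene that the authors made by aligning reads with TopHat2 2.0.6 to GRCm38 and assigning them to genes; their processing notes also name CASAVA 1.7, bcl2fastq 1.8.3, HTSeq 0.5.3p9 and featureCounts 1.4.3-p1. Use of strand in counting is not given in the sources used here, so overlapping and antisense genes, and near copies, are not separable. The deposited RPKM values were not used.

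The 10 skin libraries were grouped by labelled age, 5 of 30 months and 5 of 2 months. Each age had other animals, and the spread between libraries is that between mice. They held 27010148 to 40648322 counts, and no 2 libraries of an age agreed within sampling noise (smallest mean chi-square per gene 15.5). Of 37315 gene identifiers, 35449 were named from GENCODE vM21, which shares the build. Genes passing filterByExpr (17855) were tested with edgeR 4.0.16 (quasi-likelihood, robust, TMM scaling; R 4.3.3) on the counts as deposited, with Benjamini-Hochberg adjustment at 0.05. A standard error is the log2 fold change divided by the square root of F. The fits were tested on simulated data. At the spread of these libraries, 48 of 100 genes set to a log2 fold change of 1 were called, and 86 of 100 set to 2. At a small spread these counts were 93 and 100. A gene that did not pass may therefore still have changed. Differences between tissues were contrasts of a fit with a mean for each tissue and age. Levels are CPM from TMM library sizes.

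The members and the 51 gene lists were chosen with earlier results of these data known. Lists are described by counts and medians, with no set test. Named genes were the 10 largest rises and falls that separated the ages at a mean log2 CPM of at least 1 (leaving out antigen receptor segments and predicted genes), up to 3 called members of smallest p for each list and direction, the 5 genes of smallest p, the 5 called genes with the lowest p between tissues, and 15 always given. Part of them is printed, and some are not reported here. Genes outside the rule are said to be so. Alternatives were RLE scaling, no scaling, other filters, limma voom 3.58.1, DESeq2 1.42.0, added ages, list levels as covariates and each library left out. Promoter windows came from RefSeq (GRCm38.p6). Figures and tables used Python 3.11.15 with pandas 2.3.3 and matplotlib 3.10.9.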

Additional observations from a re-analysis of the deposited data

Results flagged for a closer look

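Among the genes named, 188 groups of 5 libraries of one age were screened for a library whose gap to its nearest neighbour took up most of the range of its age, and 34 stood out. About 1 in 20 groups of independent, normally spread values would pass the same cutoff. The groups here share the same 10 libraries, so 34 cannot be judged against that rate. The means of 2 lists stood out as well. Of all these, the library apart was 30-month replicate 3 in 9, 30-month replicates 2 and 5 in 2 each, 2-month replicate 1 in 22 and 2-month replicate 5 in 1.

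Replicate 3 was the highest of the 30-month libraries in Krt36 (14.5 CPM), Lef1 (13.1 CPM), Slc24a5 (1.63 CPM), Sprr1b (3.91 CPM), Lhfpl1 (3.50 CPM), Fam49a (40.02 CPM) and Alox8 (12.4 CPM), and in Cxcl13 (55.2 CPM) and Lmnb1 (34.2 CPM). Of the other 30-month libraries, replicate 5 was apart in Cd5l (76.3 CPM) and Adipoq (236 CPM) and replicate 2 in Cd207 (23.7 CPM) and Gpha2 (32.9 CPM).

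Replicate 1 was the highest of the 2-month libraries in Tnxb (292 CPM), Col17a1 (1207 CPM), Ighm (108 CPM), Cxcl13 (2.92 CPM), Ms4a1 (2.48 CPM), Cd5l (2.52 CPM), C3 (696 CPM), Mrgprb2 (14.8 CPM), Ccl11 (17.0 CPM) and Mbp (82.3 CPM). The same held for Lep (30.9 CPM), Myh1 (3701 CPM), Ankrd1 (1.44 CPM), Krt10 (7791 CPM), Lor (3872 CPM) and Hlf (36.0 CPM). It was the lowest of its age in Ssr2 (64.5 CPM), Mitf (15.4 CPM), Cdkn1a (259 CPM) and Lhfpl1 (6.55 CPM). Its mean over the hair shaft list was 4.00 on the log2 CPM scale, the lowest of its age, and over the skeletal muscle list 11.02, the highest. Replicate 5 of 2 months was apart in Krt14 (2744 CPM).

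In the test of skin against the mean of blood, brain and liver, 12 named genes differed by the test of the difference itself. The change in skin was more negative for Col1a1 (-3.20 on the log2 scale), Col1a2 (-2.44), Sparc (-2.29), Nfil3 (-2.45), Bmpr1a (-1.75), Fam49a (-3.41) and Alox8 (-5.35). It was more positive for Igkc (4.34), Jchain (4.04), Dbp (4.11), Per3 (2.01) and Pparg (1.16).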

How the results depend on the processing

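Counts of called genes moved most with the libraries and with covariates for tissue make-up. Against 1933 higher and 3038 lower genes, RLE scaling gave 2004 and 2721, no scaling 1407 and 2113, no filter 1749 and 2588, the study's filter 1973 and 3090, limma voom 2413 and 2569, DESeq2 3154 and 3694, and the fit with 9- and 15-month libraries added 3368 and 4042. With the level of a list as covariate in the 10 libraries the counts were 131 and 98 for skeletal muscle, 30 and 11 for adipocytes and 3 and 0 for hair. The cause of these drops was not tested; hair level and age cannot be told apart in the 10 libraries. Of the 4971 calls, 169, 40 and 3 were also called in one direction in these fits. Alternatives chosen after seeing the data gave 4942 and 4836 without 2-month replicate 1 and 30-month replicate 3, and, in 20 libraries, 384 and 127 with hair, 1294 and 716 with muscle and 636 and 378 with both as covariates. Leaving out 1 library gave 137 to 4885 higher and 97 to 5047 lower genes. In the tissue test 4091 genes differed, against 3907 under RLE scaling, 3239 with the filter in every tissue, 5693 with limma voom, 4815 without blood, and 2911 to 6208 with 1 skin library left out, the highest without 2-month replicate 1.

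No gene named in the text changed direction past the threshold. Of the 94 genes named, hair as covariate in the 10 libraries took the call from 83, adipocytes from 73 and muscle from 61; RLE scaling took none. No paired analysis was possible because the animal numbers of 30-month and 2-month mice are different.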

Other observations

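Of 15 smooth muscle and pericyte genes 2 rose and 1 fell at 30 months (median 0.80), 20% called in all, beside 27.8% of all genes tested. Of 19 genes of fatty acid and triglyceride synthesis 1 rose and 1 fell (median 0.70), and of 10 brown fat genes 1 rose (median 0.75). Of 19 basement membrane genes 5 rose and 2 fell, of 15 genes of the basal epidermis 2 and 4, of 14 other collagens of the dermis 1 and 2, and of 22 chemokines and cytokines 4 rose. These counts were larger without 2-month replicate 1, at 7 higher and 2 lower for smooth muscle, 14 higher and 1 lower for fatty acid synthesis, 7 higher and 0 lower for brown fat, 8 higher and 2 lower for basement membrane, 4 higher and 6 lower for the basal epidermis, 2 higher and 4 lower for other collagens and 9 higher and 0 lower for chemokines. Without both libraries that stand apart fatty acid synthesis had 15 higher and 1 lower and brown fat 8 higher and 0 lower, and without 2-month replicate 3 the chemokine list had 1 higher and 0 lower and the others 0 called members.

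One 15-month library, replicate 1, lay outside the range of the other 19 libraries of 2, 9, 15 and 30 months in several of the measures above. Its fibrillar collagens summed to 12503 CPM, its skeletal muscle list to 4847 CPM and its Cdkn2a to 11.8 CPM. It entered no test of 30 against 2 months other than the fits that added the 9- and 15-month libraries.

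Promoter windows of other lists were searched for named letters as a description. The letters TATAAA, searched on both strands, were in 16 of 21 hair shaft genes with a window, against 15.7% of all genes with one. The CCAAT box, searched by those letters on both strands, was in 27 of 33 cell division genes, against 41.1%.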
